A study of Mus musculus with 10 samples.

Results

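The genes described here are ERK feedback inhibitors, whose products dampen the growth factor signal that induces them, together with the transcription factor gene Etv5. They were taken by symbol from the deposited table, whose values are adjusted log2 CPM (read counts scaled by library total): Spry1, Spry2 and Spry4, Spred1, Spred2 and Spred3, Dusp4, Dusp5 and Dusp6, and Etv5. Of these 10 genes, 9 had a row among the 13492 genes in the table, and all 9 passed the filter on low values and were among the 12223 genes tested. The expression of Dusp5 was not analysed here. RNA came from the tibialis anterior, a fast muscle at the front of the shin. The mice had a C57BL/6 background, were 6 months old and had fasted for 3 h. There were 5 libraries of genotype Lrtm1 KO and 5 of genotype Lrtm1 WT, which the series describes as floxed controls; its design text states 4 a group, and all 10 libraries were used as labelled. The sources used here name neither a Cre driver nor the deleted part of Lrtm1. The libraries came from litters 108 (2 knockout and 1 control), 110 (1 and 2) and 112 (2 and 2), and the labels do not state that each is 1 animal, so the p-values speak of the spread among these libraries, which may be technical. The series asks about Lrtm1 in insulin signalling and muscle metabolism.

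Receptor tyrosine kinases, including the insulin, insulin-like growth factor and fibroblast growth factor receptors, signal through Ras, Raf, MEK and ERK. ERK activity raises the transcription of its own brakes: Sprouty proteins act upstream, near the receptor and Ras; Spred proteins hold back Ras together with the Ras-inactivating protein neurofibromin; and the dual-specificity phosphatases Dusp4, Dusp5 and Dusp6 remove the phosphates that activate ERK. Etv5 is a transcription factor of the ETS family that is induced along the same route. In muscle, Spry1 is known for its part in the return of satellite cells, the muscle stem cells, to quiescence. The transcripts of these genes are widely read as a report on ERK output, which is itself a matter of protein phosphorylation and was not measured here.

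The labelled genotype was not borne out by the level of the targeted gene. Lrtm1 measured 6.12 ± 0.10 log2 CPM in the libraries labelled knockout and 5.68 ± 0.07 in the controls (SD, n = 5 each), which is 1.35-fold higher (limma adjusted p = 0.0344). Directions are therefore given between libraries as labelled. The total over a gene can hold reads from parts that were not deleted. The annotated span of Lrtm1 also overlaps Cacna2d3, a protein-coding gene on the opposite strand. The sources used here do not say whether the authors counted by strand. All 8 fast-fibre markers had a row, with summed levels of 98760 to 102200 CPM in the libraries labelled knockout and 90000 to 103200 CPM in the controls. The depth of the libraries is unknown, because the table holds adjusted log2 values and no counts. The authors' adjustment had removed litter and 3 further terms with genotype kept, so the printed SDs leave out variation that was removed and the standard errors of differences are lower bounds.

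None of the 9 measured genes passed the test between libraries labelled knockout and control. In a limma fit that counts the litter and the 3 removed terms, 0 of 9 had an adjusted p under 0.05, against 0.335% of all genes tested (0.27% higher and 0.0655% lower), and 0 of 9 had an unadjusted p under 0.05, against 10.1%. In a limma fit that counts litter alone, and so takes 6 residual degrees of freedom where 3 remain, again 0 of 9 passed after adjustment, against 8.62%. Before adjustment, 1 of the genes, Dusp4, was under 0.05 in that fit, against 26.4% of all genes tested; its limma adjusted p was 0.173. The labelled groups overlapped in each of the 9 genes, while 16.2% of the tested genes had groups without overlap. Differences ran from -0.10 log2 CPM in Spry2 to 0.22 in Dusp4, with 5 above 0 and 4 below and a median of 0.02, beside a median of -0.0041 and 48.6% above 0 over all genes tested. The share of tested genes with a larger absolute difference than Dusp4, the widest of the 9, was 13.3%.

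**Figure D1:**
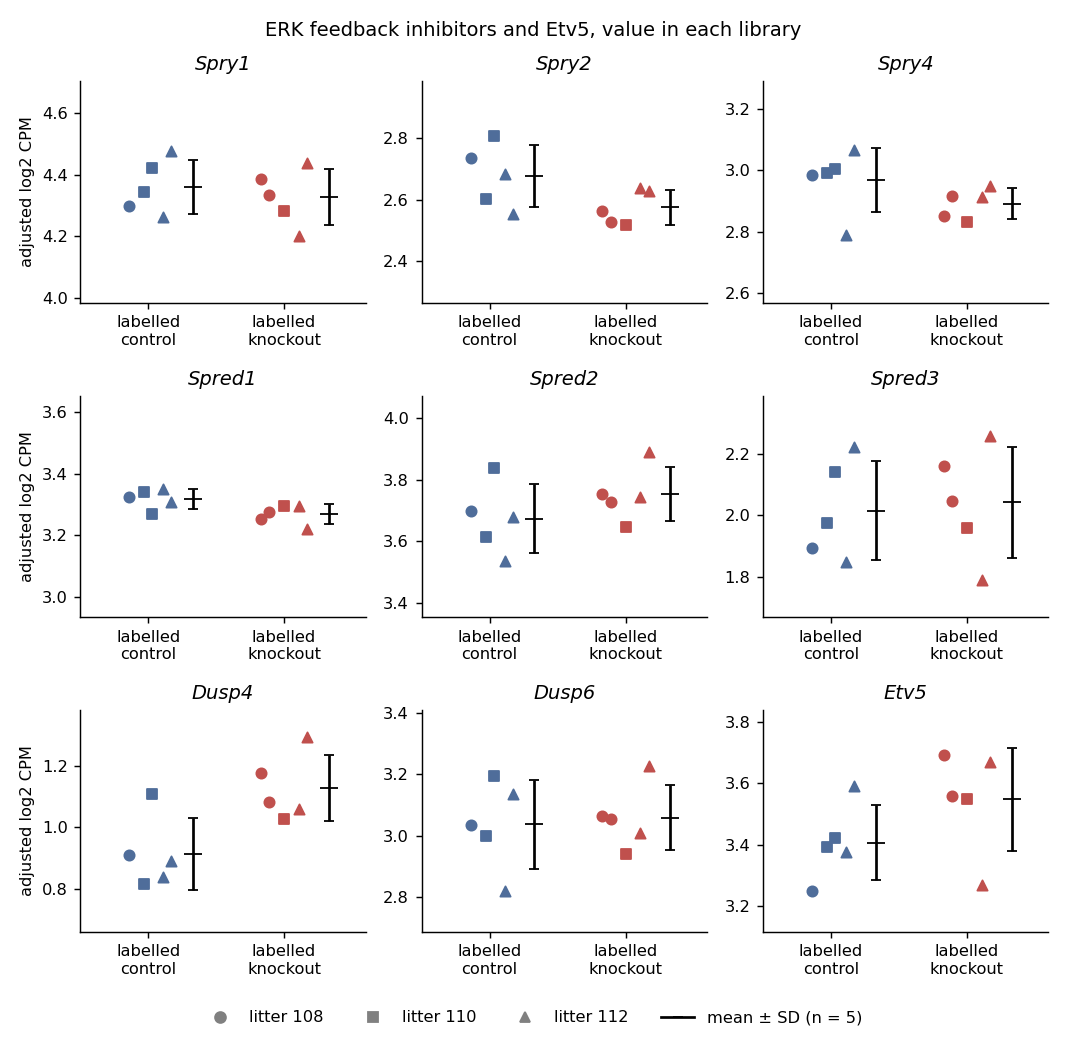
Adjusted log2 CPM (vertical axes, each spanning the same width) of the 9 measured genes in every library, by labelled group, with the marker shape giving the litter and the bar the mean ± SD (n = 5). The labelled groups overlap in all 9 panels, and the points of Spred1 lie closest together while those of Spred3 are the most spread.

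The means of the 3 Sprouty genes were slightly lower in the libraries labelled knockout, and none passed the test. Spry1 (ENSMUSG00000037211, chromosome 3, 37639947 to 37644598, plus strand; all positions are GENCODE M21 on GRCm38) encodes the Sprouty protein tied to satellite cell quiescence. It measured 4.39, 4.33, 4.28, 4.20 and 4.44 log2 CPM in the libraries labelled knockout 1, 2, 3, 4 and 5, and 4.30, 4.34, 4.42, 4.26 and 4.48 in controls 1, 3, 4, 5 and 6. The groups overlapped over most of their ranges, and the highest and lowest libraries of each group came from litter 112. The means were 4.33 ± 0.09 and 4.36 ± 0.09 log2 CPM (SD, n = 5 each), a difference of -0.03 with a 95% interval from -0.21 to 0.15 (limma adjusted p = 0.933). Its annotated span holds an unclassified gene on the opposite strand.

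Spry2 (ENSMUSG00000022114, chromosome 14, 105891947 to 105896819, minus strand) is a close relative of Spry1 and a classic inhibitor of receptor tyrosine kinase signalling. Its libraries labelled knockout lay between 2.52 and 2.64 log2 CPM, at 2.56, 2.53, 2.52, 2.64 and 2.63 for replicates 1 to 5. The controls were wider, at 2.74, 2.60, 2.81, 2.68 and 2.55 for replicates 1, 3, 4, 5 and 6. Controls 3 and 6 fell among the libraries labelled knockout, and controls 1, 4 and 5 lay above all of them. The difference of -0.10 log2 CPM had an interval from -0.33 to 0.13 (limma adjusted p = 0.802), with -0.19, -0.19 and 0.02 in litters 108, 110 and 112.

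Spry4 (ENSMUSG00000024427, chromosome 18) is a Sprouty gene known as a target of fibroblast growth factor signalling. It measured 2.85, 2.92, 2.83, 2.91 and 2.95 log2 CPM in the libraries labelled knockout and 2.99, 2.99, 3.01, 2.79 and 3.07 in the controls, in the same replicate order as above. Control 5 was the lowest of all 10 libraries, while the other controls lay above every library labelled knockout. The difference was -0.08 log2 CPM with an interval from -0.29 to 0.14 (limma adjusted p = 0.846). Within litters it was -0.10, -0.17 and 0.0026 in litters 108, 110 and 112.

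The Spred genes did not pass the test in either direction. Spred1 (ENSMUSG00000027351, chromosome 2, 117121374 to 117182279, plus strand), which encodes a membrane-bound inhibitor of Ras that binds neurofibromin, was the steadiest of the 9 genes. It measured 3.25, 3.28, 3.30, 3.30 and 3.22 log2 CPM in the libraries labelled knockout and 3.33, 3.34, 3.27, 3.35 and 3.31 in the controls. Control 4 was the only control to fall within the range of the libraries labelled knockout. Its SD was 0.03 in both groups, and 91.2% of all genes tested had a larger SD within groups. The difference of -0.05 log2 CPM (interval from -0.23 to 0.13, limma adjusted p = 0.887) was below 0 in all 3 litters, as a single sign was in 47.9% of all genes tested.

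Spred2 (ENSMUSG00000045671, chromosome 11, 19924375 to 20024026, plus strand) encodes a second inhibitor of the same kind. Its values were 3.75, 3.73, 3.65, 3.75 and 3.89 log2 CPM in the libraries labelled knockout and 3.70, 3.61, 3.84, 3.54 and 3.68 in the controls. Control 4 lay above all libraries labelled knockout but replicate 5. The difference was 0.08 log2 CPM (interval from -0.12 to 0.28, limma adjusted p = 0.820), at 0.04, -0.08 and 0.21 in litters 108, 110 and 112.

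Spred3 (ENSMUSG00000037239, chromosome 7, 29158829 to 29170411, minus strand), the third gene of the family, was the most variable of the 9. It ranged from 1.79 (replicate 4) to 2.26 (replicate 5) log2 CPM in the libraries labelled knockout, with replicates 1, 2 and 3 at 2.16, 2.05 and 1.96, and from 1.85 (replicate 5) to 2.22 (replicate 6) in the controls, with replicates 1, 3 and 4 at 1.89, 1.97 and 2.14. The 2 ranges cover nearly the same values. The difference was 0.03 log2 CPM (interval from -0.30 to 0.35, limma adjusted p = 0.970). Its span overlaps Ggn, a protein-coding gene on the opposite strand, and the sources used here do not say whether the authors counted by strand.

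Neither measured phosphatase gene passed the test. Dusp4 (ENSMUSG00000031530, chromosome 8, 34807297 to 34819894, plus strand), which encodes a nuclear phosphatase of ERK and other MAP kinases, had the widest difference of the 9 genes. It measured 1.18, 1.08, 1.03, 1.06 and 1.29 log2 CPM in the libraries labelled knockout and 0.91, 0.82, 1.11, 0.84 and 0.89 in the controls. Control 4, in litter 110, lay above 3 libraries labelled knockout, and the other 4 controls lay below all 5. The means of 1.13 ± 0.11 and 0.91 ± 0.12 log2 CPM (SD, n = 5 each) correspond to 2.19 ± 0.168 and 1.89 ± 0.158 CPM, a 1.16-fold difference with an interval from 0.906-fold to 1.49-fold (limma adjusted p = 0.714). The log2 difference was above 0 in each litter, at 0.22, 0.06 and 0.31.

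Dusp6 (ENSMUSG00000019960, chromosome 10, 99263231 to 99267489, plus strand) encodes the cytoplasmic phosphatase that is selective for ERK, and its transcript is among the most used readouts of ERK activity. It measured 3.06, 3.05, 2.94, 3.01 and 3.23 log2 CPM in the libraries labelled knockout and 3.04, 3.00, 3.20, 2.82 and 3.14 in the controls. The range of the controls took in all libraries labelled knockout except replicate 5. The difference was 0.02 log2 CPM (interval from -0.22 to 0.26, limma adjusted p = 0.969), with 0.02, -0.16 and 0.14 in litters 108, 110 and 112.

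Etv5 (ENSMUSG00000013089, chromosome 16, 22381309 to 22439719, minus strand) measured 3.69, 3.56, 3.55, 3.27 and 3.67 log2 CPM in the libraries labelled knockout and 3.25, 3.39, 3.42, 3.38 and 3.59 in the controls. Library 4 labelled knockout was lower than 4 of the 5 controls, and control 6 was higher than 3 of the libraries labelled knockout. The difference of 0.14 log2 CPM (1.10-fold, interval from 0.929-fold to 1.31-fold) did not pass (limma adjusted p = 0.733). By litter it was 0.37, 0.14 and -0.02 in litters 108, 110 and 112. Without control 1, litter 108 has no control left, and the fitted difference was -0.12. This lies below the differences in litters 110 and 112, since that fit also counts the removed terms. It is therefore not the value of those litters alone.

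**Figure D2:**
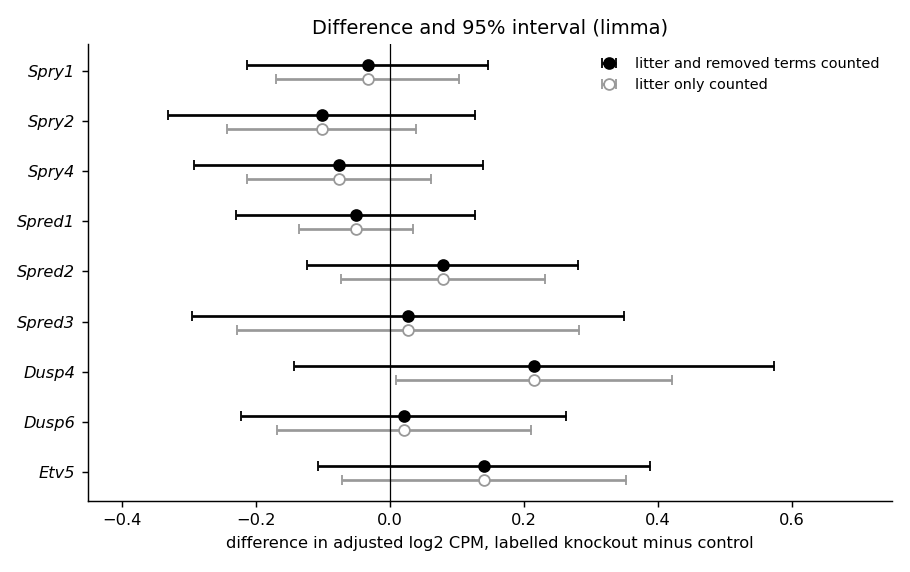
Difference in adjusted log2 CPM (horizontal axis, labelled knockout minus control) for each gene, with 95% intervals from limma counting litter and the removed terms (black) or litter only (grey). All 9 black intervals span 0, and Dusp4 is the gene whose grey interval (0.01 to 0.42) does not.

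The 95% intervals bound the size of a difference that these libraries leave room for. Across the 9 genes the lowest lower bound was 0.795-fold, for Spry2, and the highest upper bound was 1.49-fold, for Dusp4. The narrowest intervals were those of Spred1 (0.853-fold to 1.09-fold) and Spry1 (0.863-fold to 1.11-fold). An adjusted p above the threshold does not show that the levels were equal, and the intervals would be wider if the removed variation could be counted in full.

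Levels between genes were compared as CPM per kilobase of the longest transcript in the annotation, although muscle may express a shorter one. Spry1 was highest at 7.34 ± 0.441 CPM per kilobase (SD over 10 libraries) and stood above the next gene in all 10 libraries. Dusp6 (2.97), Spry2 (2.96), Spred2 (2.96) and Etv5 (2.82) followed with overlapping ranges; Dusp6 was above Spry2 in 5 libraries, Spry2 above Spred2 in 4 and Spred2 above Etv5 in 6. Spred1 (1.63) and Spry4 (1.61) formed a lower pair, with Spred1 above in 7 libraries, and the range of Etv5 did not reach down to Spred1. Spred3 (1.01) exceeded Dusp4 (0.744) in all 10 libraries, although their ranges overlapped.

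**Figure D3:**
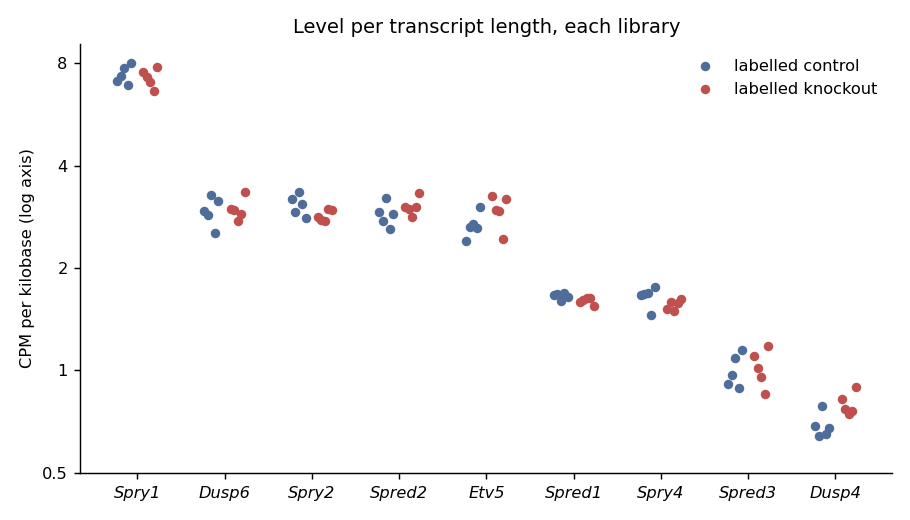
CPM per kilobase of the longest annotated transcript (vertical log axis) for each gene and library, ordered by the mean over all libraries and coloured by labelled group. Spry1 stands alone at the top, a middle set runs from Dusp6 to Etv5, and Dusp4 is lowest.

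Within the labelled groups, some libraries were the highest or lowest of their group in several of the 9 genes. The share of all genes tested with the same extreme libraries was not computed. Once litter and the removed terms are gone, all genes of the table vary in only 3 dimensions within groups. Shared extremes therefore cannot be read as particular to these genes. Library 5 labelled knockout was the highest of its group in 6 of the 9 genes and library 3 labelled knockout the lowest in 5. Among the controls, replicate 5 was the lowest in 5 genes, and replicates 4 and 6 were the highest in 4 each. Spred1 ran against the others, with its lowest value of the libraries labelled knockout in replicate 5 and its highest of the controls in replicate 5. Its shifts were small, with an SD of 0.03 log2 CPM in both groups. The others did not all run together, as with Spry2 and Etv5 (Pearson r of deviations -0.44).

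Pearson correlations of these deviations over the 10 libraries were computed for the 36 pairs of genes as a description, since all genes of the table vary in only 3 dimensions within groups once litter and the removed terms are gone. The highest was between Spry1 and Spred3 (r = 0.998), followed by Spred2 with Dusp6 (0.93) and with Dusp4 (0.92), and the lowest was between Spred1 and Dusp4 (-0.97). An r of at least 0.7 was reached by 9 of 36 pairs (25%) and an r of -0.7 or below by 5 (13.9%). Against all genes tested, each of the 9 had an r of at least 0.7 with 14.9% to 17.8% of them and of -0.7 or below with 14.4% to 17.1%, so high correlations of both signs are common in this table. The 5 other genes whose values over the 10 libraries were most like the mean of the standardised values of the 9 were Coro7 (r = 0.996), Raver1 (0.994), Copg1 (0.993), Tgfbr3l (0.992) and Nfatc4 (0.989).

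**Figure D4:**
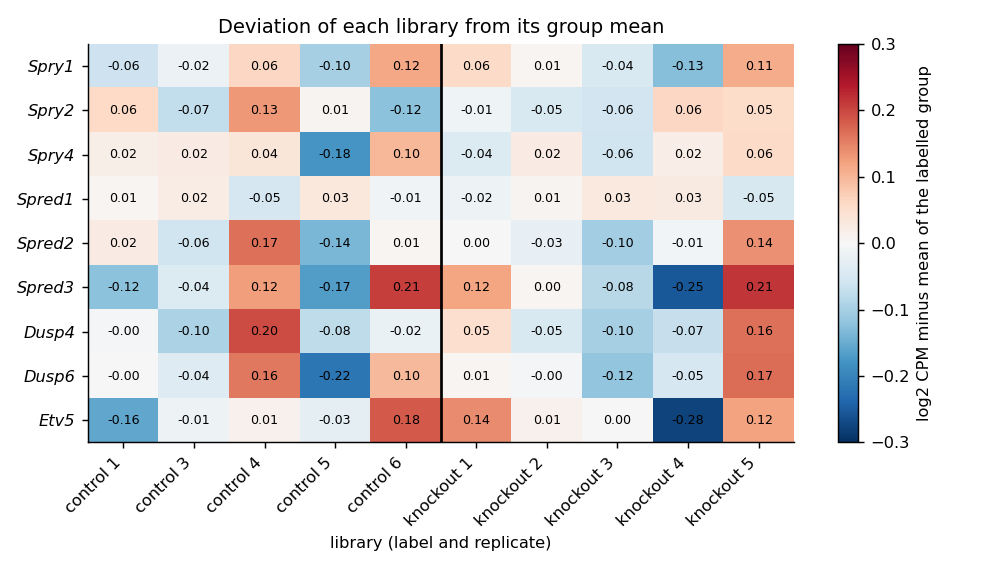
Deviation of each library from the mean of its labelled group, in log2 CPM (colour and printed value), for the 9 genes in rows and the 10 libraries in columns. Library 5 labelled knockout and control 4 are mostly red, control 5 and library 3 labelled knockout mostly blue, and the row of Spred1 has the opposite colours in these libraries.

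The sequence before the start site is shown for Dusp6 and Spry2, as the phosphatase and the Sprouty gene whose windows overlap no annotated exon, because these genes are transcribed in response to ERK and ETS factors such as Etv5 bind around a GGAA core. Both are RefSeq sequence on GRCm38.p6, the 250 bases before the start site, written 5′ to 3′ on the strand of the gene, with GGAA or its complement TTCC in capitals. The Dusp6 window is chr10:99262981-99263230 (plus strand), and the Spry2 window is chr14:105896820-105897069 (minus strand).
Dusp6: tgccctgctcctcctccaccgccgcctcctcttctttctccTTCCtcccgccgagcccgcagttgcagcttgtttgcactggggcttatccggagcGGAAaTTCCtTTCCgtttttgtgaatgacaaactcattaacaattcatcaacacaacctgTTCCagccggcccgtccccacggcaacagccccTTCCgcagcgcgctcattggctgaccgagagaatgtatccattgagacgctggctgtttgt
Spry2: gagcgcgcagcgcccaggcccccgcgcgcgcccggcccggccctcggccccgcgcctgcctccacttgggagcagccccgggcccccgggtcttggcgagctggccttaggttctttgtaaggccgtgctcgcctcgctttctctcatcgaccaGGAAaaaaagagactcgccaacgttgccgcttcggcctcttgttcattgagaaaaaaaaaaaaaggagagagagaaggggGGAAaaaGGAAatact

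The Dusp6 window holds 6 such cores on the 2 strands, and the Spry2 window holds 3. This is no mark of these genes, since 93.4% of all 32851 RefSeq windows of the same length hold at least 1. Windows were matched by symbol for 8 of the 10 genes, Dusp5 included and Etv5 with 2 start sites, which gave 9 windows. Of the longer motifs searched on both strands, none of the 9 windows held CCGGAA (which contains GGAA; 12% of all windows), TGAGTCA (4.46%) or TGACGTCA (1.55%). A CArG box, the site of serum response factor, was found in 1 of the 9, the window of Dusp5, against 1.47% of all windows. That window holds 2 such boxes, and it overlaps annotated exons of Dusp5 and of an antisense gene. A match or its absence describes only the letters of the window.

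The rest of the pathway was described from lists of its receptors, ligands, cascade proteins, other brakes, responsive transcripts and other dual-specificity phosphatases. Of 115 tested genes on these lists, 1 rose and none fell in the limma fit that counts the removed terms, against 0.335% of all genes tested. That gene was Vegfa, the endothelial growth factor (log2 difference 0.33, adjusted p = 0.0418). Its call held in 1 of the 10 fits that leave out a library, the one without control 4, and its adjusted p ran from 0.0447 to 0.640 over them. With litter alone counted, 10 were higher and 2 lower, against 5.15% and 3.48% of all genes tested. The median difference over the 115 was 0.03.

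Receptors and ligands above the feedback genes did not move as a block. With litter alone counted, 5.15% of all genes tested passed as higher and 3.48% as lower. Of 17 tested receptor tyrosine kinase genes, none passed with the removed terms counted, and Igf1r, the insulin-like growth factor receptor, passed with litter alone counted (log2 difference 0.24; limma adjusted p = 0.350 and 0.0488 in the 2 fits). Fgfr3 differed by 0.37 (adjusted p = 0.345 and 0.0559). Of 17 tested ligand genes, Vegfa passed in both fits, and 3 others passed with litter alone: Igf1 (0.49) was higher, and Angpt1 (-0.20) and Fgf7 (-0.29) were lower, with adjusted p of 0.242, 0.400 and 0.570 when the removed terms are counted.

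None of the 26 tested genes of the adaptors, Ras and the ERK cascade passed with the removed terms counted, and their differences ran only from -0.14 to 0.10. With litter alone counted, 2 of the 26 were higher, against 5.15% of all genes tested. They were the Ras activator gene Sos2 (0.10, limma adjusted p = 0.0396) and the ribosomal S6 kinase gene Rps6ka2 (0.10, 0.0476). Their adjusted p with the removed terms counted was 0.545 and 0.543. Among 18 other brakes on Ras and ERK none passed with the removed terms counted. Nf1, which encodes the neurofibromin that Spred proteins bind, measured 4.22 to 4.32 log2 CPM in the libraries labelled knockout and 3.87 to 3.98 in the controls, so the groups did not overlap. Its log2 difference of 0.34 (SE 0.07) had an adjusted p of 0.0952 in limma with the removed terms counted and 0.0022 with litter alone. Dusp7, another ERK phosphatase gene, differed by -0.25 (adjusted p = 0.472 and 0.150).

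Of 20 tested ERK-responsive transcripts other than the feedback genes, none passed with the removed terms counted, and 14 (70%) lay above 0, against 48.6% of all genes tested. Differences over the 20 ran from -0.29 to 0.65, with a median of 0.12. With litter alone counted, 3 of the 20 were higher, against 5.15% of all genes tested: the transcription factor gene Maff (0.65, limma adjusted p = 0.00604), the cyclin gene Ccnd1 (0.37, 0.0156) and Spsb1 (0.60, 0.0481). Their adjusted p with the removed terms counted was 0.185, 0.200 and 0.253. Whether these transcripts differ from the feedback genes was not tested. Of 17 tested other dual-specificity phosphatase genes, Dusp19 alone passed with litter alone counted (0.23; adjusted p = 0.0234, against 0.407 when the removed terms are counted), and Dusp16, a phosphatase of JNK and p38, differed by 0.17 (adjusted p = 0.498 and 0.0861).

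**Figure D5:**
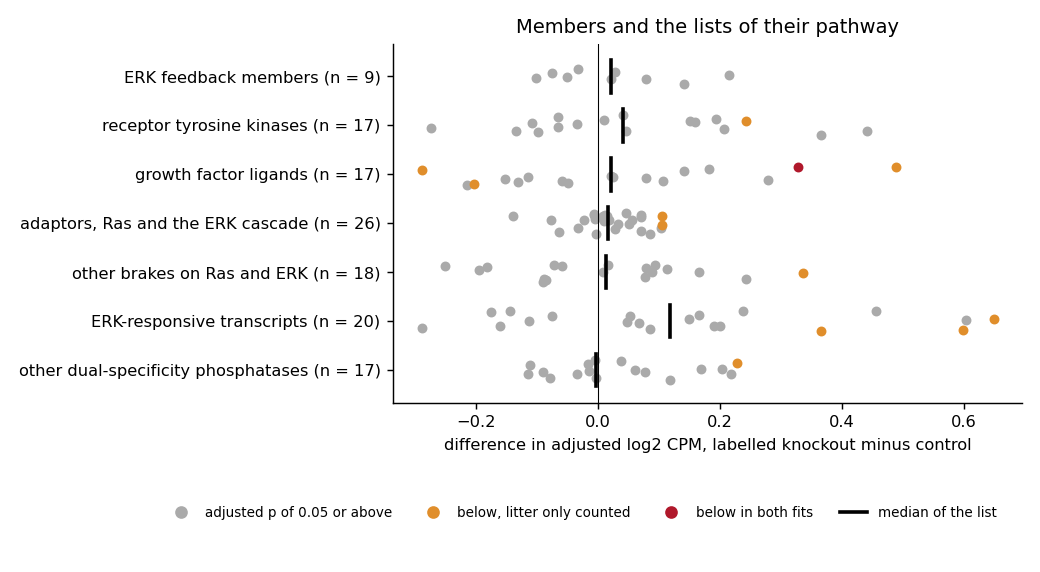
Difference in adjusted log2 CPM (horizontal axis, labelled knockout minus control) of each tested gene in the feedback set and the 6 lists of its pathway, with the list median as a black bar and colour giving the limma call. The 9 feedback genes are all grey, and Vegfa is the single gene coloured as passing in both fits.

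Markers of the other cells of the tissue are given because Sprouty and Spred genes are expressed in several of them; in bulk muscle, fewer cells of a type and less RNA per cell cannot be told apart. No gene of the 9 marker lists passed in limma with the removed terms counted. Over all genes tested, 48.6% lay above 0. With litter alone counted, 5.15% of them passed as higher and 3.48% as lower. Of 7 tested satellite cell markers 2 lay above 0, with a median log2 difference of -0.03; Sdc4 (0.29) was higher with litter alone counted (adjusted p = 0.0034), while Myf5 differed by -0.21 (adjusted p = 0.798) and the defining marker Pax7, named outside the rule, by -0.14 (adjusted p = 0.824). Their summed level was 51.8 to 54.7 CPM in the libraries labelled knockout and 49.3 to 50.9 in the controls, and Sdc4 made up 20.2 and 16.6 CPM of the group means.

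Most of the other marker lists had more genes below 0 than above. Of 7 tested adipocyte markers none lay above 0, with a median of -0.89. Lep (-2.21), Cidec (-1.20), Cfd (-0.62) and Adipoq (-0.98) passed as lower with litter alone counted, against 3.48% of all genes tested. The labelled groups did not overlap in Lep, Cidec and Cfd but did in Adipoq, against 16.2% of all genes tested without overlap. Sums over the list were 1832 to 2115 CPM in the libraries labelled knockout and 2040 to 2194 in the controls. In the controls these named genes averaged 3.34, 2.23, 8.50 and 3.45 CPM, so nearly all of the sum came from other genes of the list. Of 7 tendon markers 1 lay above 0 (median -0.23; Chad -0.53 and Fmod -0.36; sums of 161.7 to 220 and 167.6 to 265.9 CPM). Of 8 macrophage markers 1 lay above 0 (median -0.10; Cd163 -0.24 and Adgre1 -0.23; 62.0 to 66.5 and 63.9 to 69.3 CPM), as did 2 of 8 markers of fibro-adipogenic progenitors (median -0.10; Dpt -0.14 and Dcn -0.15; 902 to 1009 and 907 to 1067 CPM). Of 8 endothelial markers 2 lay above 0 (median -0.03; Kdr 0.15 and Pecam1 0.06; 275.7 to 282.2 and 272.7 to 284.7 CPM), and of 7 tested smooth muscle and pericyte markers 2 did (median -0.09; Acta2 0.14 and Kcnj8 -0.12; 437.1 to 459.3 and 443.2 to 467.5 CPM). The fast-fibre list had 6 of 8 above 0 (median 0.02; Myh1 0.18 and Myh4 0.13). The adipocyte genes named were the only ones of the lists in this paragraph to pass with litter alone counted, and the sums overlapped between the groups in each list of this paragraph. The part of these cells in the levels of the feedback genes was not tested.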

How the data were processed

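Stranded oligo-dT libraries of tibialis anterior RNA were made with a directional kit from BGI/MGI, as the labels' protocols state; the submitters' processing notes name fastp, kallisto and limma without versions. Genome build, annotation and the terms of the adjustment are not named there. The deposited values, adjusted log2 CPM in 1 table, were used as they stand, with no pseudocount. Values fitted with genotype and litter gave litter coefficients of at most 6.7e-14, and residuals of all genes spanned 3 of 6 dimensions; the 3 empty directions were entered as terms.

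Differences were tested in limma 3.58.1 (R 4.3.3; lmFit, eBayes with trend, two-sided), with genotype, litter and those terms, leaving 3 residual degrees of freedom, on the 12223 genes whose mean was 0 log2 CPM or more (1269 fell below). Calls were made at 0.05 after Benjamini-Hochberg adjustment over all genes tested. The genes described and all lists were chosen with earlier results of these data known. Named beside them, with exceptions said to be so, were, from each list, up to 4 genes past the threshold or else the 2 with the smallest p, up to 3 more that passed with litter alone, Lrtm1, and the 5 genes most correlated with the feedback genes. The result of 1 marker list is not reported here. Alternatives changed the terms, filter, pseudocount, scaling, variance model and libraries. Deviations of same-numbered libraries had r = -0.85, 0.45, 0.03 and -0.50 for replicates 1, 3, 4 and 5. With litter removed, the deviations within a litter cancel out, so these values cannot show whether libraries were paired. Because replicate 4 spans 2 litters, numbers were not taken as pairs. Positions and lengths are from GENCODE M21 (GRCm38), and promoters from RefSeq (GRCm38.p6).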

Additional observations from a re-analysis of the deposited data

Results flagged for a closer look

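In none of the 18 labelled groups of the 9 feedback genes did 1 library stand apart from the rest by Dixon's criterion (a gap over 0.71 of the range for 5 libraries). Among the other named genes, 3 groups did, of 90 groups examined in all. Chance gives about 1 in 20 for independent values. With litter and the 3 further terms removed these values are not independent, so that rate cannot be applied here. Dusp7 was at 4.21 log2 CPM in library 4 labelled knockout, against 4.45 to 4.51 in the rest of its group. Control 5 was low for 2 connective tissue genes, Dcn (7.76 against 7.99 to 8.05) and Fmod (6.16 against 6.74 to 6.93).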

How the results depend on the processing

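The count of feedback genes past the threshold was 0 under all 20 alternatives. None of the 9 log2 differences changed sign under the 10 settings that keep all libraries. Dropping the litter or the removed terms, or changing the filter or variance model, leaves each difference as it was. Only the other settings could have changed a sign. The smallest adjusted p of any feedback gene was 0.0606, for Dusp4 with genotype as the only term. Leaving out each library in turn moved the log2 difference from -0.137 to 0.0574 for Spry1, -0.170 to 0.0151 for Spry2 and -0.140 to 0.0462 for Spry4. The ranges were -0.11 to -0.01 for Spred1, -0.0240 to 0.290 for Spred2 and -0.18 to 0.19 for Spred3. They were 0.09 to 0.42 for Dusp4, -0.11 to 0.26 for Dusp6 and -0.12 to 0.26 for Etv5. Only Spred1 and Dusp4 held their sign in all of these fits. The share of all genes tested that do so is not given here. Of all genes tested 41 passed; 1054 did with litter alone counted, 2608 with genotype alone and 1 without a variance trend, and between 1 and 54 when a library was left out. That count was 1 without control 6, 5 without control 1, 24 without control 3, and 11, 21 and 17 without knockout replicates 2, 3 and 5; each of these fits has 2 residual degrees of freedom, and without control 1 or knockout 3 a litter (108 or 110) is left with 1 genotype. Of the pathway genes 1 passed, against 12, 30 and 0 in the same 3 settings, 0 with libraries rescaled to equal totals and 0 to 2 when a library was left out. With the replicate number as a block in place of litter and the removed terms, 128 genes passed, 3 of them pathway genes and 0 feedback genes. Beyond the terms counted and the libraries left out, the cause was not tested. Depth is unknown, so what counting error adds at the low level of Dusp4 cannot be given.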
